A study of Mus musculus with 18 samples.

Results

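A set of 10 genes of the non-collagen extracellular matrix were followed in mouse lung: Fn1, Eln, Fbn1, Lox, Dcn, Chad, Agrn, Sparc, Tnc and Postn. For each gene the probe set annotated to that symbol alone was taken, and where a gene had several, the one with the highest mean over the 18 arrays. Of the 10 genes, 9 were measured in this way, among 18193 genes with such a probe set, and Fbn1 is not analysed here. All 9 passed the filter on low signal that left 13434 genes for testing. Probe sets were selected on their mean level alone, but the genes themselves were proposed with earlier results of these data in view, so their p-values are not independent evidence.

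The samples were right lung lobes of female B6C3F1 mice, 18 weeks old, with 3 animals in each of 6 groups and 1 array per animal. Dosing had begun at 5 weeks of age and lasted 13 weeks. Feed groups received plain rodent chow, 1,5-naphthalenediamine (NDA) at 2000 ppm, N-(1-naphthyl)ethylenediamine dihydrochloride (NEDD) at 2000 ppm or pentachloronitrobenzene (PCNB) at 8187 ppm, on 7 days per week. Gavage groups received corn oil alone or 2,3-benzofuran at 240 mg/kg in corn oil, given at 5 ml/kg on 5 days per week. The design names NDA and benzofuran as chemicals that raised lung tumours in mice, and NEDD and PCNB as chemicals that did not. It asks whether lung expression after a short exposure separates these classes. All animals were of 1 hybrid strain and 1 sex, each class holds 2 chemicals, and the gavage control stands for the vehicle, the route and the schedule together.

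The extracellular matrix is the scaffold that cells secrete around themselves. In lung it carries the airways and vessels and lets the alveoli recoil. Fibronectin (Fn1) is an adhesive glycoprotein that binds integrins and collagen. Elastin (Eln) forms the elastic core of alveolar walls and arteries, and lysyl oxidase (Lox) cross-links elastin and collagen. Decorin (Dcn) is a small leucine-rich proteoglycan that binds collagen fibrils, and chondroadherin (Chad) is a leucine-rich repeat protein first described in cartilage. Agrin (Agrn) is a heparan sulphate proteoglycan of basement membranes. Sparc, tenascin C (Tnc) and periostin (Postn) are matricellular proteins, which modulate how cells and matrix interact rather than bearing load.

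Signals are on a log2 scale, on which a difference of 1 is a change of 2-fold. Array medians lay between 5.68 and 5.80. Lung markers were high in each group, with the alveolar type 2 marker Sftpc at 14.51 to 14.63 and the alveolar type 1 marker Ager at 13.81 to 14.18. The array of benzofuran animal 10 stood apart: its score on the first principal component was 83.5, against -16.1 to 1.79 on the other 17 arrays. Its actin 3′ minus 5′ signal, an indirect measure of RNA integrity, was the highest at 0.91. The RNA integrity number of that sample was 8.9, inside the range of 8.3 to 9.4 of the 15 arrays that have one. Why this array stood apart was not tested. Benzofuran results are therefore also given without animal 10. The tissue was bulk lung, so fewer cells of a type and less RNA per cell cannot be told apart.

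Chad fell in NDA lungs, and Sparc and Tnc were lower with the tumour-positive than with the tumour-negative chemicals. The other 6 genes passed the test in none of 8 comparisons. A gene is called here where its adjusted p is under 0.05 in limma's moderated test, with Benjamini-Hochberg adjustment over all 13434 genes. NDA against the feed control gave 1 called member of 9, where 1.37% of all genes were called. For NEDD 0 of 9 were called (0.0223% of all genes), for PCNB 0 of 9 (0.0149%) and for benzofuran 0 of 9 (1.73%). At an unadjusted p under 0.05 these counts were 1 of 9 for NEDD (9.44% of all genes), 0 of 9 for PCNB (2.97%) and 5 of 9 for benzofuran (19.5%). The 3 feed comparisons share the same control arrays. In the plot of differences from the control, Chad under NDA lies far from every other point.

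**Figure D1:**
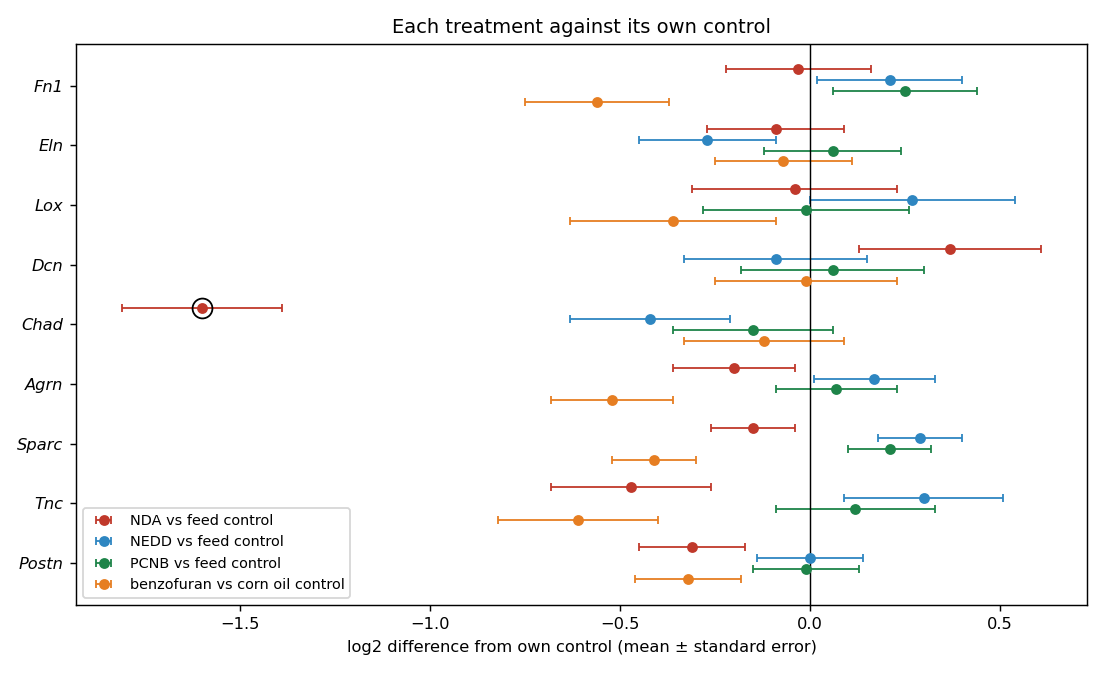
Log2 difference (horizontal axis) of the 9 genes (vertical axis) in each treatment from its own control, with its standard error, n = 3 animals per group. The single circled point, Chad under NDA at -1.60, is the only called difference of the 36 plotted, and all 9 benzofuran points lie below 0. The benzofuran points of Dcn, Eln and Chad lie less than their standard error from 0.

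The sequences before the start sites of the 3 called genes are shown because these genes carry the results that follow. Each window is the 250 bases upstream of the first RefSeq start (GRCm38.p6), 5′ to 3′ on the strand of the gene: Chad at chr11:94564797-94565046 on the plus strand, Sparc at chr11:55420081-55420330 on the minus strand and Tnc at chr4:64047016-64047265 on the minus strand. Capitals mark the letters TATAAA or GGGCGG.
Chad: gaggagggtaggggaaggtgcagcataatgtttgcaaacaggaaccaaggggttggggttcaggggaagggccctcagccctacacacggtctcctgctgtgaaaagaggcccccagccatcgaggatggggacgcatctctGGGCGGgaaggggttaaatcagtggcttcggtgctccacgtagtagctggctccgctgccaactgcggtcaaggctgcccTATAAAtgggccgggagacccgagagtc
Sparc: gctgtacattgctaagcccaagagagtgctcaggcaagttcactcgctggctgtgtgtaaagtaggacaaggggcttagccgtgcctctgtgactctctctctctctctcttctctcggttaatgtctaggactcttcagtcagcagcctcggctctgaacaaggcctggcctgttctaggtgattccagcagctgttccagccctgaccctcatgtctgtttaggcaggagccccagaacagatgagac
Tnc: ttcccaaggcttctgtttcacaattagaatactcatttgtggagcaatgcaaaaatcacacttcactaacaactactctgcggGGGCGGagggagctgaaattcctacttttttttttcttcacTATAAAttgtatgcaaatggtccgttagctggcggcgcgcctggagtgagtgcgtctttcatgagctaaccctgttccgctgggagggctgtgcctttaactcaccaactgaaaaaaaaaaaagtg
Of the 10 genes, 6 had an entry in the RefSeq promoter table. A set of 4 motifs was searched on both strands: the TATA box TATAAA, the GC box GGGCGG, the dioxin response core GCGTG and the antioxidant response core TGACNNNGC. In Chad, TATAAA stands 28 bases and GGGCGG 108 bases before the start. In Tnc they stand 126 and 167 bases before it, and a second RefSeq start lies 79 bases downstream. The Sparc window holds none of the 4, and none of the 3 windows holds GCGTG or TGACNNNGC. Over 32851 windows of this length, 12.4% held TATAAA, 32.7% GGGCGG, 28.2% GCGTG and 10.2% TGACNNNGC. The motifs do not overlap in these windows, and a match is a description of letters only.

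Among the leucine-rich repeat proteins, Chad had the lowest signal in NDA lungs. Its log2 signal was 6.83, 6.90 and 7.20 in the NDA animals and 8.72, 8.93 and 8.09 in the feed controls. It was 8.38, 8.01 and 8.10 with NEDD, 8.25, 8.68 and 8.37 with PCNB, 8.40, 8.66 and 8.75 with benzofuran, and 8.34, 9.10 and 8.72 with corn oil. All 3 NDA arrays lie below all 15 others, and among the other groups only the ranges of NEDD and benzofuran do not overlap. The group means were 6.98 ± 0.20 (SD, n = 3) with NDA and 8.58 ± 0.43 in the feed control. Chad fell by 1.60 ± 0.21 (SE) on the log2 scale, a signal 3.04-fold lower (adjusted p = 0.000128), and no other gene of the 13434 fell by more. Leaving out each of the 6 arrays in turn gave differences of -1.84 to -1.43, called each time.

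No other treatment moved Chad past the threshold against its own control. The log2 difference was -0.42 ± 0.21 with NEDD (adjusted p = 0.538; 95% interval -0.85 to 0.02), -0.15 ± 0.21 with PCNB and -0.12 ± 0.21 with benzofuran. The NDA effect on Chad minus the benzofuran effect was -1.49 ± 0.29 (adjusted p = 0.0328), and Chad was the 1 member called in that contrast, in which 0.29% of all genes were called. This call held in 4 of 12 fits that left out 1 array (-1.73 to -1.30). It was lost without each NDA array but 5, without feed control 27 or 28, without corn oil control 22 or 25, and without benzofuran 8 or 10, with adjusted p-values of 0.0585 to 0.117. It was also lost with the actin 3′ minus 5′ signal as a covariate (-1.40 ± 0.33, adjusted p = 0.106) and in a fit on the compared groups alone (adjusted p = 0.12).

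Cartilage markers were not called lower beside Chad. Of 10 such genes, 7 failed the filter on low signal, and the 3 that passed, Col2a1, Acan and Col9a1, differed by 0.22 ± 0.15, 0.05 ± 0.17 and 0.04 ± 0.15 between NDA and the feed control, none called. The type II collagen gene Col2a1 lay between 4.81 and 5.69 over all arrays. Summed as the mean deviation from each gene's mean, the tested cartilage markers lay at -0.12 to 0.10 on the NDA arrays and at -0.26 to 0.07 on the feed controls. The actin 3′ minus 5′ signal was also lower with NDA, at 0.33 to 0.43 against 0.58 to 0.73 in the feed controls. With that measure as a covariate the Chad difference was -1.53 ± 0.25 (adjusted p = 0.0017). The NDA and feed control arrays do not overlap on it, so between these 2 groups it cannot be told apart from treatment. Among club cell markers Upk3a was called higher with NDA (1.40 ± 0.13, adjusted p = 2.79e-06), while Scgb1a1 (-0.15 ± 0.07), Cyp2f2 (-0.21 ± 0.08) and Scgb3a2 (-0.07 ± 0.08) were not called. What part these cells had in the Chad difference was not tested.

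Dcn, the other leucine-rich repeat member, was not called in any comparison. Its signals were 11.51, 11.37 and 11.19 with NDA, 11.04, 11.23 and 10.69 in the feed control, and 10.97, 11.15 and 10.58 with NEDD. The NDA and feed control arrays overlap, and the log2 difference was 0.37 ± 0.24 (adjusted p = 0.657; interval -0.13 to 0.87). With the actin measure as a covariate it was -0.01 ± 0.23. With benzofuran the difference from corn oil was -0.01 ± 0.24, and 0.25 ± 0.23 without animal 10. PCNB differed from the feed control by 0.06 ± 0.24.

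**Figure D2:**
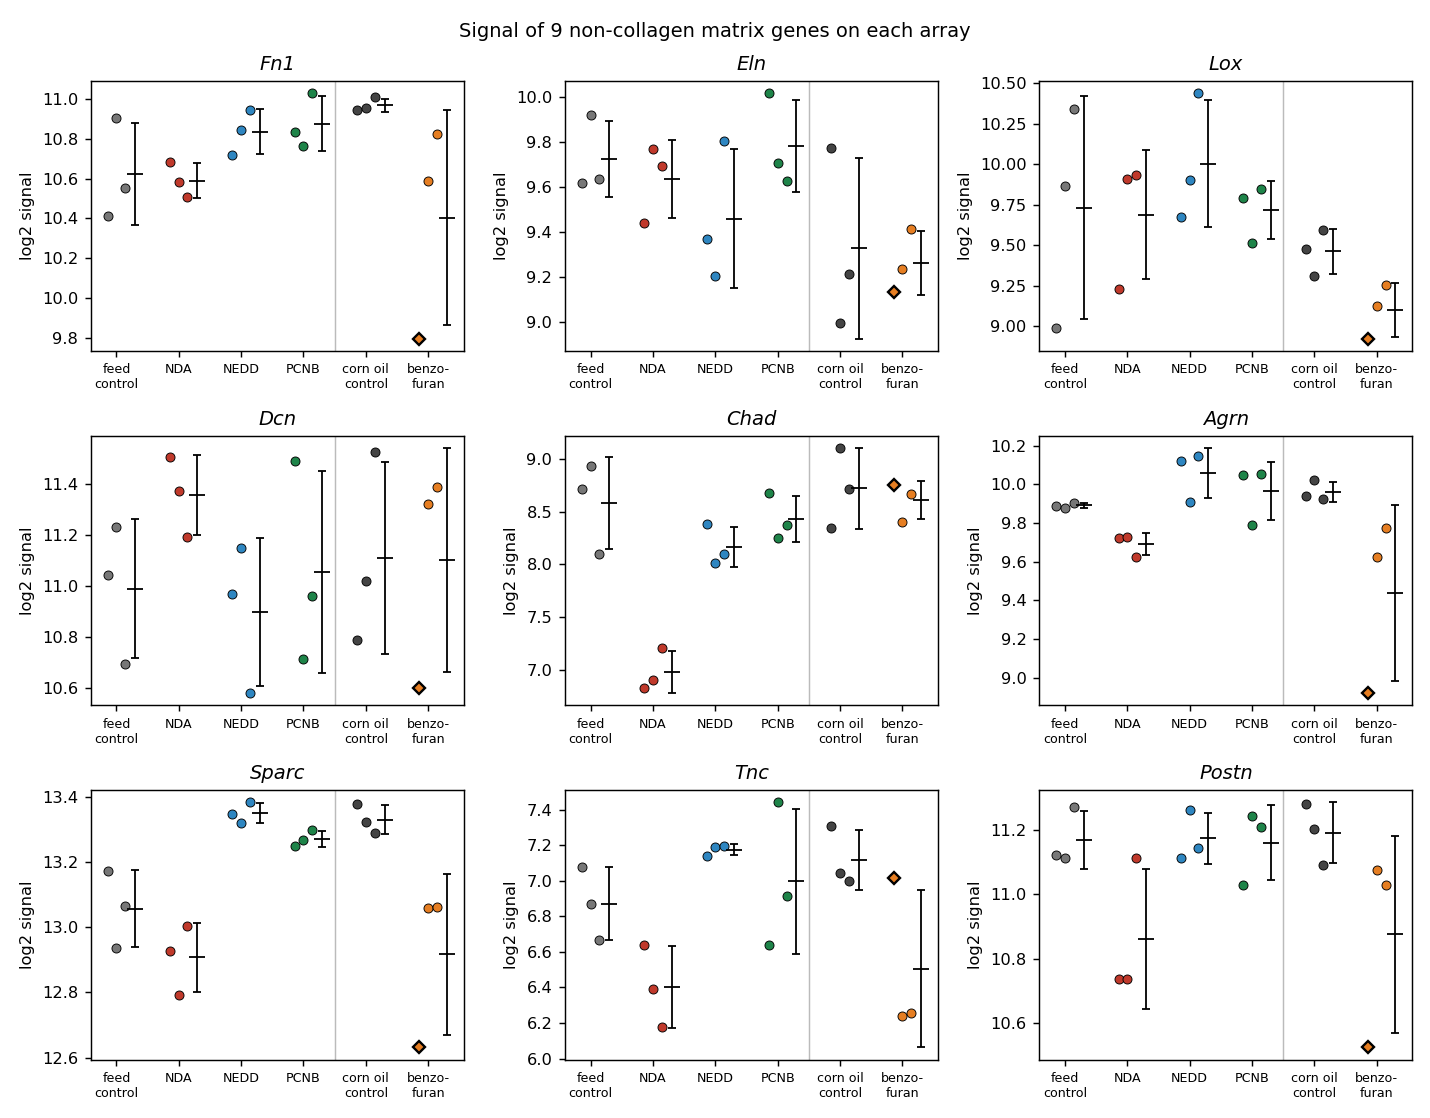
Log2 signal (vertical axes, one scale per gene, not starting at 0) of the 9 genes on each of the 18 arrays by group (horizontal axes), with the group mean and SD at the right of each trio of points. Diamonds mark benzofuran animal 10. Chad is lowest on the 3 NDA arrays, and Sparc lies lower on the NDA and benzofuran arrays than on the NEDD and PCNB arrays.

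Among the matricellular genes, Sparc showed small differences with little spread. Its log2 signal was 12.93, 12.79 and 13.00 with NDA and 13.06, 13.06 and 12.63 with benzofuran, the last being animal 10. The NEDD arrays gave 13.35, 13.32 and 13.38, and the PCNB arrays 13.27, 13.25 and 13.30. Feed controls had 13.17, 12.94 and 13.06, and corn oil controls 13.38, 13.32 and 13.29. The benzofuran arrays all lie below the corn oil arrays, and the NEDD and PCNB arrays all lie above the feed controls, whereas NDA and the feed control overlap.

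Against its own control, no treatment changed Sparc past the threshold. Benzofuran gave a log2 difference of -0.41 ± 0.11 (adjusted p = 0.0605), and -0.27 ± 0.09 without animal 10 (adjusted p = 0.223), while leaving out animal 6 or 8 gave adjusted p-values of 0.0444 and 0.0244. NDA gave -0.15 ± 0.11, NEDD 0.29 ± 0.11 (adjusted p = 0.494) and PCNB 0.21 ± 0.11. A second Sparc probe set gave -0.38 ± 0.09 with benzofuran and -0.31 ± 0.09 with NDA. With NEDD and PCNB it gave smaller values than the first, 0.08 ± 0.09 and 0.13 ± 0.09. Another, dim one with a mean signal of 6.06 gave 0.01 ± 0.15 with benzofuran and 0.07 ± 0.15 with NDA. For NEDD and PCNB it gave 0.17 ± 0.15 and 0.02 ± 0.15.

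Tnc was dimmer and more variable. Its log2 signal was 6.64, 6.39 and 6.18 with NDA, and 7.08, 6.87 and 6.67 in the feed controls. It was 6.24 and 6.26 in benzofuran animals 6 and 8 but 7.02 in animal 10, against 7.31, 7.04 and 7.00 with corn oil. NEDD gave 7.14, 7.19 and 7.19, and PCNB 7.44, 6.64 and 6.91. The NDA arrays lie just below the feed controls, and among the benzofuran arrays animal 10 alone reaches the corn oil range.

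The Tnc log2 difference was -0.47 ± 0.21 with NDA (adjusted p = 0.415; -0.18 ± 0.21 with the actin covariate) and -0.61 ± 0.21 with benzofuran (adjusted p = 0.121). Without animal 10 the benzofuran difference was -0.87 ± 0.19 (adjusted p = 0.0505). With the actin covariate and all arrays it was -0.64 ± 0.18 (adjusted p = 0.0451). NEDD and PCNB gave 0.30 ± 0.21 and 0.12 ± 0.21. Postn gave -0.31 ± 0.14 with NDA (adjusted p = 0.422) and -0.32 ± 0.14 with benzofuran (adjusted p = 0.215), with 0.00 ± 0.14 and -0.01 ± 0.14 for NEDD and PCNB. Without animal 10, whose Postn signal of 10.52 was the lowest of the 18, the benzofuran difference was -0.14 ± 0.12.

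Fn1 and Agrn, the adhesive and basement membrane members, were lowest in benzofuran animal 10. Fn1 was 10.59 and 10.83 in benzofuran animals 6 and 8 and 9.80 in animal 10, against 10.95, 10.95 and 11.01 with corn oil. Agrn was 9.62 and 9.77 in animals 6 and 8 and 8.92 in animal 10, against 9.94, 10.02 and 9.92. All benzofuran arrays lie below the corn oil arrays for both genes. The log2 differences were -0.56 ± 0.19 for Fn1 (adjusted p = 0.118) and -0.52 ± 0.16 for Agrn (adjusted p = 0.0883). They were -0.26 ± 0.13 and -0.26 ± 0.10 without animal 10. With the actin covariate they were -0.53 ± 0.14 (adjusted p = 0.0363) and -0.50 ± 0.12 (adjusted p = 0.0301).

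In feed groups Fn1 differed from the control by -0.03 ± 0.19 with NDA (-0.38 ± 0.16 with the actin covariate), 0.21 ± 0.19 with NEDD and 0.25 ± 0.19 with PCNB. Agrn was 9.72, 9.73 and 9.62 with NDA, 9.89, 9.88 and 9.90 in the feed control and 10.12, 9.91 and 10.15 with NEDD. These 3 groups do not overlap, and the Agrn differences from the control were -0.20 ± 0.16 with NDA and 0.17 ± 0.16 with NEDD, neither called. With the actin covariate they were -0.46 ± 0.15 and -0.01 ± 0.13, again not called.

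The elastic fibre genes showed no called difference. Eln differed from its control by -0.09 ± 0.18 with NDA, -0.27 ± 0.18 with NEDD, 0.06 ± 0.18 with PCNB and -0.07 ± 0.18 with benzofuran, each interval reaching at least from -0.33 to 0.12. Lox varied most among the feed controls, at 8.99, 9.87 and 10.34. Its signals were 8.93, 9.13 and 9.25 with benzofuran, all below the corn oil values of 9.48, 9.31 and 9.59, with a log2 difference of -0.36 ± 0.27 (adjusted p = 0.489). For Lox the intervals run from -0.60 to 0.52 with NDA and from -0.92 to 0.20 with benzofuran.

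Read over all members, 9 of 9 log2 differences were below 0 with benzofuran (39.8% of all genes tested) and 8 of 9 with NDA (55.9%). Those of Dcn, Eln and Chad with benzofuran, and of Fn1, Lox and Eln with NDA, were smaller than their standard errors. With NEDD 3 of 9 were below 0 (54.2% of all genes), and with PCNB also 3 of 9 (56.4%). For 5 of the 9 members (Fn1, Lox, Agrn, Sparc and Postn) every benzofuran array lay below every corn oil array, which held for 4.32% of all genes. Without animal 10 these benzofuran counts were 8 of 9 (44.5% of all genes) and 6 of 9 (9.37%). Arrays did not overlap downward for 3 of 9 members with NDA (11.6% of all genes), and upward for 3 of 9 with NEDD (7.23%) and for 1 of 9, Sparc, with PCNB (3.67%). In the benzofuran group animal 10 had the lowest signal for 7 members and the highest for Tnc and Chad.

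NDA and NEDD are both naphthalene amines, and they were fed at the same concentration for the same time. In NDA both amino groups sit directly on the ring, whereas in NEDD a ring-bound nitrogen carries an aminoethyl chain. This is the 1 pair of related compounds in the series, and it needs no control arrays. Chad was lower with NDA than with NEDD, with a log2 difference of -1.19 ± 0.21 (2.28-fold lower, adjusted p = 0.00247). So was Sparc, with -0.44 ± 0.11 (1.36-fold lower, adjusted p = 0.0402). These 2 of 9 members were called, against 2.12% of all genes. Chad stayed called in 6 of 6 fits without 1 array (-1.30 to -1.08), Sparc in 0 of 6 (-0.49 to -0.38, adjusted p = 0.0727 to 0.214).

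For the other 7 the difference between NDA and NEDD missed the threshold. Tnc came nearest, at -0.77 ± 0.21 (adjusted p = 0.0643; interval -1.20 to -0.34). Agrn gave -0.37 ± 0.16 (-0.70 to -0.04) and Postn -0.31 ± 0.14 (-0.60 to -0.02). The intervals ran from -0.64 to 0.15 for Fn1, from -0.87 to 0.25 for Lox, from -0.21 to 0.56 for Eln and from -0.04 to 0.96 for Dcn. In 6 of 9 members every NDA array lay below every NEDD array (10.8% of all genes). Dcn was the only member with every NDA array above, which held for 13.2% of all genes.

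The design's own question was put to each gene by setting the average effect of NDA and benzofuran against that of NEDD and PCNB, with every effect taken from its own control. Sparc was lower with the tumour-positive chemicals, with a log2 difference of -0.54 ± 0.09 (1.45-fold lower, adjusted p = 0.00342), and so was Tnc, with -0.75 ± 0.18 (1.69-fold lower, adjusted p = 0.0234). These 2 of 9 members were called, against 3.49% of all genes. The error comes from animals within groups, so these p-values take no account of spread between the 2 chemicals of a class. The fits below leave out single arrays, never a chemical. The Sparc call held in 18 of 18 fits without 1 array (-0.57 to -0.46), and without benzofuran 10 the value was -0.46 ± 0.07 (adjusted p = 0.001). The Tnc call held in 15 of 18 (-0.88 to -0.64). It was lost without NDA 5 (adjusted p = 0.0594), corn oil control 22 (0.0569) or feed control 28 (0.0502), and without benzofuran 10 the value was -0.88 ± 0.15 (adjusted p = 0.00264).

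Agrn (-0.48 ± 0.13, adjusted p = 0.0593), Fn1 (-0.53 ± 0.16, 0.084) and Chad (-0.58 ± 0.18, 0.0868) missed the threshold in this contrast. Without benzofuran 10 the Agrn difference was smaller but called (-0.35 ± 0.08, adjusted p = 0.0206). Postn gave -0.31 ± 0.12, Lox -0.33 ± 0.23, Eln 0.02 ± 0.16 and Dcn 0.19 ± 0.21. For Sparc and Agrn all 6 NDA and benzofuran arrays lay below all 6 NEDD and PCNB arrays, which is 2 of 9 members against 0.7% of all genes. Unlike the contrast, this count compares the signals themselves with no control subtracted, so it sets gavage arrays directly against feed arrays. With the actin measure as a covariate the Sparc and Tnc values were -0.51 ± 0.08 and -0.80 ± 0.15, both called. The second Sparc probe set gave -0.44 ± 0.08 (adjusted p = 0.00684 over 28441 probe sets), and the dim one -0.05 ± 0.13.

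The contrast also carries the difference between the controls, since benzofuran is read against corn oil. Corn oil and feed controls differed by 0.27 ± 0.11 for Sparc, 0.24 ± 0.21 for Tnc and 0.35 ± 0.19 for Fn1, with corn oil higher, and by -0.40 ± 0.18 for Eln. None of the 9 members, and 0 of the 13434 genes (0%), was called between the controls, with 271 genes (2.02%) and 2 of 9 members at an unadjusted p under 0.05. For 3 of 9 members (Fn1, Agrn and Sparc) every corn oil array lay above every feed control array, against 2.32% of all genes.

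Markers of other lung cell types were read beside Sparc and Agrn. In the same contrast 5 of 5 endothelial markers were below 0 with a median of -0.32 and none called, while 44.3% of all genes were below 0 and their median was 0.03. Their summed level lay at -0.20 to -0.10 on the NDA arrays and -0.49 to 0.02 on the benzofuran arrays, against 0.11 to 0.14 with NEDD, 0.04 to 0.18 with PCNB, -0.01 to 0.20 in the feed control and -0.12 to 0.14 with corn oil. Fibroblast markers had 7 of 8 genes below 0 and a median of -0.14, with -0.11 to 0.00 on the NDA arrays and -0.30 to 0.01 on the benzofuran arrays. Lower values were not limited to these lists. Mesothelial Msln, Upk3b, Wt1 and Lrrn4 gave -0.43, -0.50, -0.14 and -0.17, none called. Alveolar type 1 Ager, Hopx, Aqp5, Pdpn and Rtkn2 gave -0.16, -0.10, -0.16, -0.15 and -0.04, none called. Without benzofuran 10, 5 of 5 endothelial, 5 of 5 alveolar type 1 and 6 of 6 smooth muscle genes were below 0. So were 6 of 6 cell cycle genes, with a median of -0.36. Fibroblast genes were then 6 of 8 and mesothelial genes 3 of 4, against 46.9% of all genes. With that array included, the summed smooth muscle level ran from -0.27 to 0.57 with benzofuran, against -0.16 to 0.23 with corn oil. Ciliated cell markers had 5 of 5 genes above 0, a median of 0.66 and 3 called higher (Foxj1, Tekt1 and Tekt4), where 3.16% of all genes were called higher. The part of these cell types in the Sparc, Tnc and Agrn differences was not tested.

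**Figure D3:**
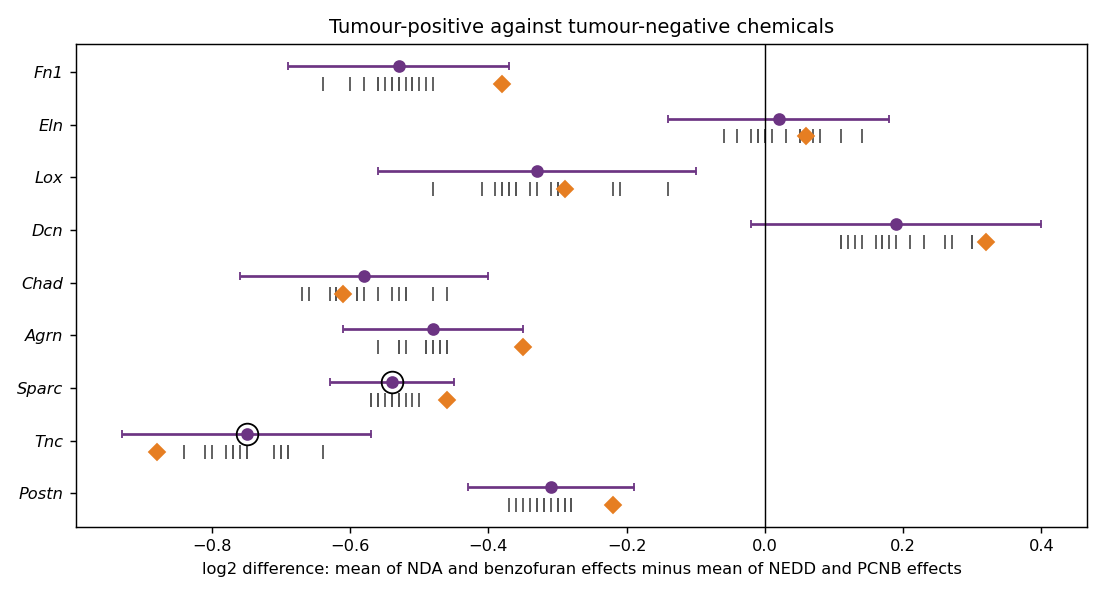
Log2 difference (horizontal axis) between the mean effect of NDA and benzofuran and the mean effect of NEDD and PCNB for the 9 genes (vertical axis). Circles with bars show the value and its standard error, ticks the values with 1 of the 18 arrays left out, and the diamond the value without benzofuran 10. Rings mark the called genes, Sparc at -0.54 and Tnc at -0.75.

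Genes of the same matrix classes were read by counts. In the matricellular and fibronectin-like list of 18 tested genes, which holds Sparc, Tnc, Fn1 and Postn, the median log2 difference was -0.25 with NDA (all genes -0.02) and -0.35 with benzofuran (all genes 0.05). With NDA 15 of 18 were below 0 (55.9% of all genes) and 1 was called (1.37% of all genes), Smoc2, a secreted calcium-binding relative of Sparc (-0.86 ± 0.17, adjusted p = 0.00828). With benzofuran 14 of 18 were below 0 (39.8% of all genes) and 0 were called. Without animal 10 the median was -0.25, with 16 of 18 below 0 (44.5% of all genes). Between NDA and NEDD, Sparc and the thrombospondin gene Thbs3 (-0.44 ± 0.11, adjusted p = 0.0442) were called lower.

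Basement membrane genes, Agrn among them, had a median of -0.20 with NDA and -0.32 with benzofuran over 18 genes. The benzofuran median was -0.04 without animal 10. Lama3, a laminin chain of epithelial basement membranes, was the 1 called gene with benzofuran (-0.54 ± 0.13, adjusted p = 0.0423), against 1.73% of all genes. It was not called without that animal (-0.37 ± 0.11, adjusted p = 0.164). In the contrast of classes 17 of 18 were below 0, where 44.3% of all genes were, and Lama3 was called (-0.43 ± 0.11, adjusted p = 0.0421; -0.34 ± 0.09 without animal 10). Without animal 10 it was 14 of 18, against 46.9% of all genes, with Lama3, Agrn and Col4a2 (-0.36 ± 0.10, adjusted p = 0.0465) called. Of the 6 fibrillar collagen genes tested, whose fibrils Dcn binds and Lox cross-links, Col3a1 (-0.65 ± 0.13) and Col1a2 (-0.66 ± 0.14) were called lower with benzofuran. Of all genes 1.73% were called there, 0.171% lower. Without animal 10 none of the 6 was called and the median went from -0.55 to -0.38. Calls over all 13434 genes also went from 233 to 67. Col1a2 was lower in the contrast of classes (-0.52 ± 0.12, adjusted p = 0.0229), and remained called without animal 10 (-0.42 ± 0.09).

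Chad was the only called gene of the 10 tested small leucine-rich proteoglycans and relatives in any comparison. The elastic fibre list (18 genes, Eln and Lox included), the matrix receptors (24), the TGF-beta signalling genes (15) and the hyaluronan and large proteoglycan genes (5) had 0 calls in the 8 comparisons by limma. Summed over those comparisons, an unadjusted p under 0.05 was found for 10 of 144, 24 of 192, 11 of 120 and 2 of 40 of their differences, against 10.6% of the differences of all genes. By the same count the other lists had 35 of 144 (matricellular), 32 of 152 (proteases and inhibitors), 23 of 144 (basement membrane), 14 of 48 (fibrillar collagens) and 10 of 80 (small leucine-rich proteoglycans). The 8 comparisons reuse the same 6 groups, so 1 gene can be counted several times and these differences are not independent. The matricellular list also holds the members Sparc, Tnc, Fn1 and Postn. Among 19 matrix proteases and inhibitors, Mmp23 rose with NDA (0.81 ± 0.14, adjusted p = 0.0032) and with benzofuran (0.86 ± 0.14, adjusted p = 0.00431; 0.66 ± 0.11 without animal 10). The cysteine protease gene Ctsk rose with NDA (0.57 ± 0.11, adjusted p = 0.0113). The plot of list medians shows the benzofuran values furthest to the left for the fibrillar collagens.

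**Figure D4:**
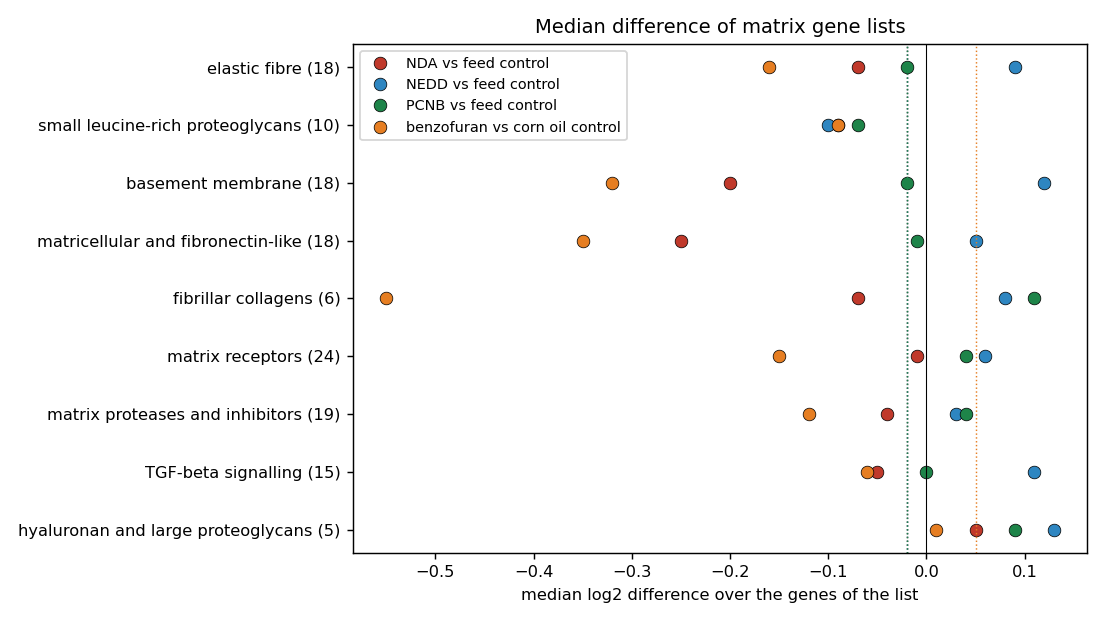
Median log2 difference from the control (horizontal axis) of 9 lists of matrix genes, with the number of genes tested in brackets, in the 4 treatments. Dotted lines are the medians over all 13434 genes, which coincide at -0.02 for the feed groups. Benzofuran runs from -0.55 for fibrillar collagens to 0.01 for hyaluronan genes, with all 3 of its arrays included.

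Across the 18 arrays, Agrn varied with Fn1 (Pearson r = 0.85) and Sparc (0.82), and Sparc with Postn (0.81). Without benzofuran 10 these values were 0.58, 0.74 and 0.69, and Sparc with Tnc went from 0.53 to 0.74. Chad had r between -0.28 and 0.37 with the other members, and between -0.23 and 0.59 without benzofuran 10, when its r was 0.59 with Postn, 0.53 with Sparc and 0.49 with Agrn. The genes most like Chad over the 18 arrays were Slc4a5 (r = 0.91), Lypd2 (0.88) and Smoc2 (0.87). Over the 17 arrays without benzofuran 10 they were Scgb1a1 (0.91), Slc4a5 (0.91) and Lypd2 (0.90). For Sparc they were Apbb2 (0.93), Rassf8 (0.89) and Cdk6 (0.88), for Tnc Spns2 and Pacs1 (0.85 each) and Wscd1 (0.83), and for Agrn Col4a2 and Prelp (0.95 each) and Soga1 (0.94). Without benzofuran 10, Agrn was most like Cdh13 (0.90). Fn1 was most like Gpm6b and Col6a1 (0.91 each) and Bgn (0.90), and Postn most like Rassf8 (0.94), Ptprm (0.90) and Kitl (0.89). Lox was most like Zhx3 (0.87), Ifngr1 (0.84) and Dennd3 (0.82), and Dcn most like Cygb (0.87), Flrt2 (0.83) and Crkl (0.82). The values were lowest for Eln, with Naip6 (0.72), Trim26 (0.71) and Dtx4 (0.70). Arrays share groups, so these values describe patterns across groups as well as animals.

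Second probe sets gave a further reading for Fn1, Eln and Lox. The second Fn1 probe set differed by -1.08 ± 0.33 between benzofuran and corn oil (adjusted p = 0.122 over 28441 probe sets), in the direction of the first. For Lox the second probe set gave -0.24 ± 0.28 in that comparison, and for Eln -0.02 ± 0.18. Second probe sets of Dcn, Agrn and Tnc and a further one of Lox failed the filter on low signal, and Chad and Postn have 1 each.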

How the data were processed

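RNA (10 µg per lobe) was hybridised to 1-colour Affymetrix arrays, per the labels' protocols. The deposited table holds 1 value per probe set and array on a log2 scale, judged from its range of 2.48 to 14.78. How the authors summarised and normalised the deposited log2 values is not given in the sources used here. Values were used as deposited. Of 45101 probe sets, 34945 carried 1 gene symbol, 932 several and 9160 none, and 64 were controls. Genes were tested where 3 or more arrays had them over that array's 40th percentile. limma 3.58.1 (R 4.3.3) fitted 1 mean per group over all 18 arrays (12 residual degrees of freedom), with 2-sided tests. On simulated data, 63.9% of genes changed 1.5-fold and 91.3% changed 2-fold were recovered for NDA, with 4.7% false calls. That simulation drew independent noise of equal spread on every array, with none standing apart. It therefore checks the code and does not give the rate of false calls in these data. Members and gene lists were chosen with earlier results of these data known. The genes named are the members, the called genes of the matrix lists (up to 4 with the smallest p were allowed where none was called, and are not given), the 3 genes most correlated with each member, and markers from the cell type lists. The p-values set each difference against a spread between animals that is pooled over the 6 groups, and 3 arrays per group limit the precision. The spread of the benzofuran group thus enters the feed comparisons. For Agrn with NDA the standard error was 0.16, and 0.08 in a fit on the compared groups alone. Alternatives were other filters, median centring, array weights, an actin covariate, averaged probe sets, fits on the compared groups and leaving out each array. Lists without benzofuran 10 were added after seeing the data.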

Additional observations from a re-analysis of the deposited data

Results flagged for a closer look

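Some members differed between treatments by a test of the difference itself, with limma's adjusted p over all genes. Chad was lower with NDA than with NEDD (log2 difference -1.19, all 3 NDA arrays below all 3 NEDD arrays, adjusted p = 0.00247), and the NDA effect on Chad minus the benzofuran effect was -1.49 (adjusted p = 0.0328). Sparc was lower with NDA than with NEDD (-0.44, adjusted p = 0.0402, arrays again apart). In fits without 1 array this Sparc call held in 0 of 6, and the Chad call for NDA minus benzofuran in 4 of 12. Between the tumour-positive and tumour-negative chemicals, the difference was -0.54 for Sparc and -0.75 for Tnc (adjusted p = 0.00342 and 0.0234).

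In other cases every array of one treatment lay above its control and every array of another lay below its own, and the difference between these effects was not tested. The log2 difference of Agrn was 0.17 with NEDD (-0.01 with the actin covariate) and -0.52 with benzofuran (-0.26 without animal 10, -0.18 with averaged probe sets), neither called. That of Sparc was 0.29 with NEDD and 0.21 with PCNB, against -0.41 with benzofuran (-0.27 without animal 10), none called. With the actin covariate the Sparc values were 0.19, 0.13 and -0.40, the last called (adjusted p = 0.0217).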

How the results depend on the processing

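No paired analysis was possible because no 2 groups share an animal number. No called member difference changed sign under any alternative; 77 of 1089 member differences did, all among those not called. Counts of all genes called moved most. Array weights gave 1149 for benzofuran (233 as reported), 755 for NDA (184), 521 for NEDD (3), 1813 for NDA against NEDD (285), 158 for NDA minus benzofuran (39) and 1873 for the contrast of classes (469). An actin covariate gave 734, 364, 1 and 625 for the first 4. Fits on only the groups compared, not run for the contrast of classes, gave 5, 283, 0, 507 and 21 for the first 5 and 0 for PCNB (2). Members called went from 0 to 4 (actin) and 3 (weights) for benzofuran, from 1 to 2 (weights) for NDA, from 0 to 1 (weights) for NEDD, from 2 to 4 (actin, weights) and 1 (averaged probe sets) for NDA against NEDD, from 1 to 0 (actin, groups only) for NDA minus benzofuran, and from 2 to 4 (actin, median centring) and 5 (weights) for the contrast of classes; the cause was not tested. Leaving out 1 array gave 37 to 1054 genes for benzofuran (37 without corn oil control 22, 67 without benzofuran 10, 1054 without benzofuran 8), 120 to 150 for NDA (120 without feed control 29), 0 to 3 for NEDD, 2 to 3 for PCNB, 0 to 1 between controls, 168 to 248 for NDA against NEDD (168 without NEDD 12, 176 without NDA 5, 189 without NDA 4), 23 to 61 for NDA minus benzofuran (23 without NDA 5, 61 without benzofuran 10) and 300 to 868 for the contrast of classes (300 without feed control 28, 868 without benzofuran 8), with 0 to 3, 1, 0, 0, 0, 1, 0 to 1 and 1 to 4 members. Median centring changed the split of higher to lower calls from 210 and 23 to 117 and 50 for benzofuran and from 424 and 45 to 294 and 136 for the contrast of classes, and moved the median gene of NDA minus benzofuran from -0.075 to 0.042. Under it Sparc between NDA and NEDD was -0.47 ± 0.12 (adjusted p = 0.0632) and Agrn in the contrast of classes -0.57 ± 0.15 (0.0498). The Tnc probe set was dim, with a mean log2 signal of 6.84. Between NDA and the feed control its standard error was 0.21, the same as for Chad. Dcn (0.24) and Lox (0.27) had larger ones. Those of Fn1 (0.19), Eln (0.18), Agrn (0.16), Postn (0.14) and Sparc (0.11) were smaller. Whether low signal limited precision was not tested.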
